A study of Mus musculus with 4 samples.

Results

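The MHC class II presentation genes described here are 8 mouse genes: H2-Aa, H2-Ab1, H2-Eb1, Cd74, H2-DMa, H2-DMb1, H2-DMb2 and Ciita. Their sites were taken as the positions whose deposited gene label, split at commas, named one of these genes. Of 506952 listed positions, 160 carried such a label, in 6 of the 8 genes. Bisulfite sequencing of poly(A) RNA was used to find methylated cytosines in NRAS/AE9a leukemic cells, an acute myeloid leukemia (AML) line of the mouse, with 2 Tet2 KO libraries and 2 WT libraries. AE9a is a truncated AML1-ETO fusion protein. Both genotypes carried the NRAS and AE9a oncogenes and grew in RPMI medium with the cytokines SCF, IL-3 and IL-6 and the selection drugs G418 and puromycin. The sources used here do not say how Tet2 was removed, whether the KO cells are 1 clone or whether the replicates were separate cultures. Tet2 encodes a dioxygenase that oxidises 5-methylcytosine.

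MHC class II molecules are pairs of an alpha and a beta chain that carry peptides from endosomes to the cell surface, where CD4 T cells read them. The invariant chain, encoded by Cd74, fills the groove of a new molecule and guides it to the endosome, and the H2-DM heterodimer then exchanges the remaining fragment for other peptides. Ciita encodes the transactivator that switches the whole group on. In blood cells the pathway is best known from B cells, dendritic cells and macrophages, and it is lowered in some acute myeloid leukemias.

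The table lists positions called in the KO libraries, and its name holds the words uniq and ko. Whether uniq stands for sites not called in WT or for uniquely placed reads is not stated. The table has 0 columns with WT values, so KO was not compared with WT for any gene below. It also gives no RNA level for Tet2, so the deletion was not checked. The level of a site is the fraction of the reads used that still showed cytosine after bisulfite, and the lowest level in the table is 0.2, with at least 10 covering reads. A gene without a listed site may have had too few reads, too few cells with the RNA, only lower levels or, if uniq means KO only, sites called in WT too, and these cannot be told apart. Over all listed sites the median coverage was 18 reads, with extremes of 10 and 721.

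The reference base under the listed positions could be read only inside RefSeq promoter windows, each from 250 bases before to 50 bases after a gene's start on GRCm38. Among 5942 plus-strand positions there, the reference held C at 51.9%, G at 30%, A at 18.1% and T at 0. The C positions had a median level of 0.7, the G positions 0.667 and the A positions 0.6. Of the 144 minus-strand positions in these windows, 90.3% were a G on the plus strand, which is a C on their own strand. Calls in both KO replicates were listed for 18.8% of the plus-strand C positions, 9.03% of the G positions and 9.77% of the A positions. One listed class II position lay in such a window, in H2-DMb1, and its reference base was G. The base under the other 159 class II positions was not read here, so each is called a listed site and not a methylated cytosine. The part of this mismatch in the results below was not tested.

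Of the 8 class II genes, 6 had at least 1 listed site, beside 34.2% of 21900 protein-coding genes, and 5 had 5 or more, beside 24.9%. The 5 genes with several sites all carried them on the plus strand, and H2-Aa, on the minus strand, had 1. Strand bears on this count, since 51.4% of 8730 plus-strand genes had a site, against 18.5% of 8762 minus-strand genes. The 160 sites had a median level of 0.599 with quartiles of 0.405 and 0.771, and the median over all listed sites was 0.526. Their median coverage was 16 reads and the median number of reads used was 12. The median gene with plus-strand sites had 71, more than any class II gene. Per kilobase of gene span, Cd74 had 6.02 sites, H2-DMb1 5.54, H2-Ab1 3.39, H2-Eb1 2.68 and H2-DMa 0.876, around a median of 2.98 over the 5295 protein-coding genes with plus-strand sites. The low figure for H2-DMa is over a span of 19409 bases, and 16 of its 17 sites lay in the last 25% of that span.

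The classical class II chains were H2-Aa and H2-Ab1, the alpha and beta chains of the I-A molecule, and H2-Eb1, the beta chain of the I-E molecule. All of them lie on chromosome 17 (mm10). H2-Aa, which spans 34282744 to 34287823, had its single site at position 34283654. There 24 reads covered the position and 3 of the 13 reads used were unconverted, a level of 0.231 (Wilson 95% interval 0.0818 to 0.503). That level equals the median of all 4761 listed minus-strand sites and the lowest level in H2-Eb1, and lies below the lowest in H2-Ab1, 0.237.

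H2-Ab1, which spans 34263227 to 34269418, had 21 sites with levels from 0.237 to 1 and a median of 0.683. Of 5485 plus-strand genes with 5 or more sites, 96.7% had a lower median level and 98.2% a lower median coverage than its 30 reads. Genes were not matched for number of sites, here or below. Only 13% of 5295 protein-coding genes with plus-strand sites had fewer sites than H2-Ab1, and a median over few sites varies more. Its sites fell into 4 groups more than 250 nt apart. The first group held 11 sites within 201 nt, from 34264802 to 34265002, at a median level of 0.723 and a median coverage of 41 reads. This group took in the deepest site of the gene, at 34264802, with 26 unconverted reads of 44 used out of 51 covering (level 0.591, Wilson interval 0.444 to 0.723). Further along it, the site at 34264861 kept 28 of 33 reads (0.848, interval 0.691 to 0.933) and the site at 34264911 kept 19 of 24 (0.792, interval 0.595 to 0.908). The 3 sites of the second group included the highest of the gene, at 34267490, where 26 of 26 reads used were unconverted (interval 0.871 to 1). The last group held 2 sites, and its final one, at 34269262, kept 10 of 11 reads (0.909, interval 0.623 to 0.984). Each of the 4 groups held a site above 0.8. The intervals of these 5 sites overlapped, except that the interval of 34264802 lay below that of 34267490.

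H2-Eb1, which spans 34305867 to 34316674, had 29 sites with levels from 0.231 to 1 and a median of 0.667, above the median of 95.6% of the plus-strand genes. Its coverage was lower, with a median of 16 reads. The sites formed 4 groups, and 14 of them lay within 207 nt, from 34309651 to 34309857, at a median level of 0.759. The second group had 9 sites over 214 nt, from 34314223 to 34314436, at a median of 0.538. Reads used are known only for sites called in 1 KO replicate. Among those with 20 or more, the highest was at 34314308, with 16 of 21 reads (0.762, Wilson interval 0.549 to 0.894). Some sites called in both replicates were higher, such as 34309663, with a level of 0.768 at 49 covering reads. The deepest, at 34309693, kept 28 of 44 reads used out of 54 covering (0.636, interval 0.489 to 0.762). A site at 34314335 was lower, with 15 of 38 reads (0.395, interval 0.256 to 0.553). The first site of the gene, at 34309651, had a level of 0.75 and the last, at 34316038, one of 0.364.

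Neighbouring bases were listed together in several members. Over the 159 plus-strand class II sites, 12.6% stood directly beside another listed site, below the 17.7% of all listed plus-strand sites. The share was highest in H2-Eb1, with 12 of 29 sites (41.4%). It was 2 of 21 in H2-Ab1, 11.8% in H2-DMa, 10.3% in H2-DMb1 and 0 of 53 in Cd74. Another listed site lay within 10 nt at 57.2% of the plus-strand class II sites and at 70.6% of all listed plus-strand sites. These shares were not tested. The paired levels could differ widely at similar depth: at 34309754 and 34309755 they were 0.909 and 0.25, at 12 and 15 covering reads, and at 34315116 and 34315117 they were 0.75 and 0.25, at 15 reads each. At 34314307 and 34314308 they were 0.781 and 0.762. The first of the pair was the higher one in all 6 H2-Eb1 pairs, and the second was the higher one in both H2-DMb1 pairs.

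**Figure D1:**
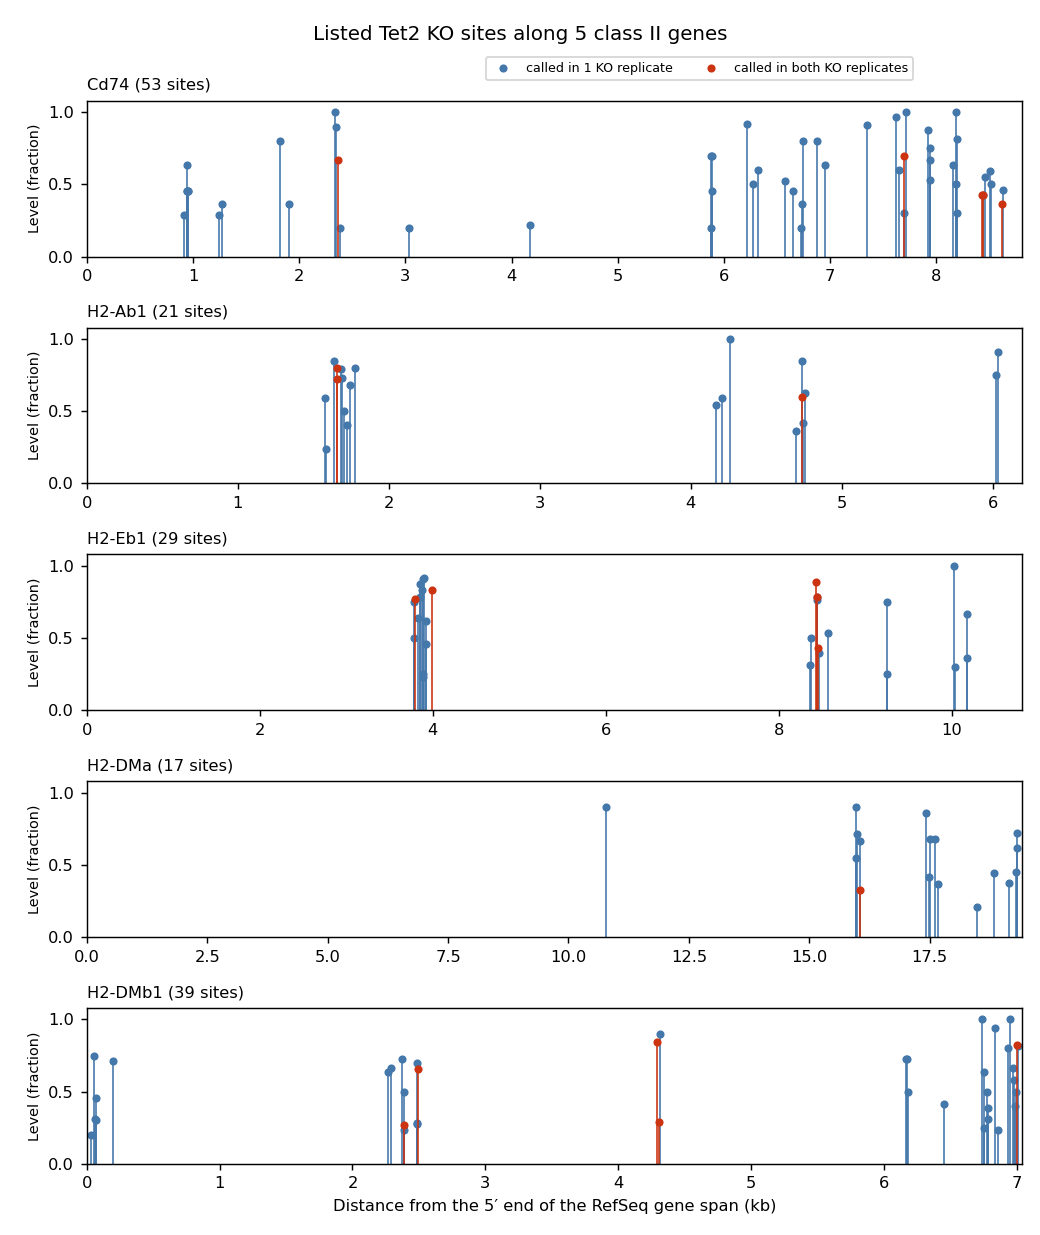
Each stem is a listed site of 1 gene, placed by its distance in kb from the 5′ end of the RefSeq gene span (x axis) with its level, the fraction of reads used that were unconverted (y axis), and coloured by whether 1 or both KO replicates made the call. Sites stand in short groups with long gaps in H2-Ab1 and H2-Eb1, and 16 of the 17 H2-DMa sites lie in the last 25% of the span.

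Cd74, on chromosome 18 from 60803849 to 60812652, had the most sites of the group, 53, with levels from 0.2 to 1 and a median of 0.526. That median was above those of 46.5% of the plus-strand genes. Its median coverage of 13 reads was the lowest among the 5 genes, yet it also held the deepest sites. The site at 60812310 had 82 unconverted reads of 148 used out of 182 covering (level 0.554, Wilson interval 0.474 to 0.632). Near it, the site at 60812358 kept 45 of 76 reads (0.592, interval 0.480 to 0.696). The last of its 11 groups, from 60811471 to 60812475, held 22 sites at a median level of 0.573 and included 4 of the 5 sites called in both KO replicates. The highest Cd74 sites with 20 or more reads used were at 60811471, with 30 of 31 reads (0.968, interval 0.838 to 0.994), and at 60810067, with 23 of 25 (0.92, interval 0.750 to 0.978). These 2 sites were picked as the highest, so no test against the deepest sites was made. One deep site stood apart at the other end of the scale. At 60808025, the nearest other site of the gene was 1140 nt away and 82 reads covered the position. Of the 36 reads used, 8 were unconverted, a level of 0.222 (interval 0.117 to 0.381). Only 43.9% of its covering reads were used, against a median of 84.4% over Cd74 sites called in 1 replicate. The first listed site, at 60804764, kept 4 of 14 reads, and the last, at 60812475, kept 6 of 13.

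The peptide exchange factor H2-DM pairs the alpha chain gene H2-DMa with a beta chain gene, of which the mouse has a pair, H2-DMb1 and H2-DMb2. H2-DMa, from 34119693 to 34139101 on chromosome 17, had 17 sites with levels from 0.211 to 0.9 and a median of 0.615 at a median coverage of 24 reads. Of these, 16 lay in the last 25% of the span, and 1 stood alone at 34130469, with 9 of 10 reads unconverted (Wilson interval 0.596 to 0.982). That span is 19409 bases long, and the part of it that each transcript covers was not read here. Among sites with 20 or more reads used, those at 34135673, 34137306 and 34137206 were highest, with 15 of 21, 17 of 25 and 19 of 28 reads. Their levels of 0.714, 0.68 and 0.679 did not differ beyond their intervals. The deepest site, at 34138835, was lower, with 21 of 56 reads used out of 70 covering (0.375, interval 0.260 to 0.506). The last site, at 34139011, kept 8 of 13 reads.

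H2-DMb1, from 34153191 to 34160229, had 39 sites in a span of 7039 bases. Levels ran from 0.2 to 1 with a median of 0.579, at a median coverage of 16 reads and with no site above 41. The largest of its 6 groups held 16 sites within 277 nt, from 34159928 to 34160204, at a median level of 0.607. The deepest site, at 34155459, kept 21 of 33 reads (0.636, Wilson interval 0.466 to 0.778). At 34153389 the count was 15 of 21 (0.714, interval 0.5 to 0.862) and at 34155674 it was 6 of 22 (0.273, interval 0.132 to 0.482). The last site, at 34160204, kept 9 of 11 reads.

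The first site of H2-DMb1, at 34153221, is the class II position whose reference base could be read. It was listed with 2 of 10 reads unconverted, the lowest level in the table. The RefSeq sequence around it on the plus strand, chr17:34153207-34153235 on GRCm38, is printed to show that the listed position, in capitals, is not a C.
H2-DMb1 listed position: gtttaggatctcagGaggggctgagtgac

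H2-DMb2, from 34143229 to 34151553, had no site with its label, although the RefSeq promoter table puts it on the plus strand. Its RefSeq span nevertheless held 14 listed plus-strand sites that carried no gene label at all. In the spans of the other 7 genes, 0 sites were without a label. Of the 14, 10 lay within 65 nt, from 34143444 to 34143508, and 215 to 279 nt inside the 5′ end of the span. These 10 were between 1741 and 1805 nt upstream of 34145249, the start site taken from the RefSeq promoter table. The other 4 lay between 34151359 and 34151393, 160 to 194 nt before the end of the span. Their levels ran from 0.231 to 0.824 with a median of 0.478, at 10 to 22 covering reads, and each was called in 1 KO replicate. The highest, at 34143475, kept 14 of 17 reads (Wilson interval 0.590 to 0.938).

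For the pair H2-DMb1 and H2-DMb2, only promoter sequences were compared here. Over the 300-base promoter windows, 210 of 258 aligned bases were identical (81.4%). How alike their RNAs are was not measured. How the authors handled reads that match more than 1 place is not stated in the sources used here. Whether such reads moved sites between the pair was not tested. The stretches below are printed because class II promoters are known for an X box, bound by RFX and CREB factors, and a Y box, bound by NF-Y, on which the Ciita protein docks. They are the RefSeq sequences in the direction of transcription on GRCm38, with the Y box core ATTGG in capitals: chr17:34287852-34287921 on the minus strand for H2-Aa, and on the plus strand chr17:34305758-34305827 for H2-Eb1, chr17:34153080-34153149 for H2-DMb1 and chr17:34145109-34145178 for H2-DMb2.
H2-Aa promoter: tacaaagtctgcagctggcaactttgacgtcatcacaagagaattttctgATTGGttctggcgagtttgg
H2-Eb1 promoter: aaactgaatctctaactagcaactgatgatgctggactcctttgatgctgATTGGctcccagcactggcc
H2-DMb1 promoter: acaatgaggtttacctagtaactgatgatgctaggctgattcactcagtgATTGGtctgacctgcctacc
H2-DMb2 promoter: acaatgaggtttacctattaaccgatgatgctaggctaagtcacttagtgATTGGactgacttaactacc

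In this stretch H2-DMb1 and H2-DMb2 shared 61 of 70 bases without a gap. The motif TGATTGG was searched on both strands. It was in 4 of the 5 class II genes with a promoter window, all but H2-DMa, and in 7.82% of all 32851 windows. The stretches printed above come from these 4 genes. The core CCAAT alone was in all 5 class II windows and in 37.4% of all windows, and each TGATTGG holds it. GATGATGC, searched on both strands after the sequences had been seen, was in H2-Eb1, H2-DMb1 and H2-DMb2 and in 0.703% of windows. These matches describe the sequences and were not tied to the listed sites. H2-Ab1, Cd74 and Ciita are named here without a window.

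Ciita, on chromosome 16 from 10480014 to 10531064, had 0 listed sites, labelled or unlabelled, within its 51051 bases.

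Levels were set beside those of all plus-strand sites at the same depth. At 10 to 14 covering reads the 65 plus-strand class II sites had a median level of 0.6, against 0.545 over all plus-strand sites of that coverage. At 15 to 24 reads the medians were 0.648 for 52 class II sites and 0.538 for all, and at 25 to 49 reads 0.667 for 29 and 0.5 for all. At 50 or more reads they were 0.5 for 13 and 0.438 for all. The class II median was the higher one at each depth, and sites of a gene share reads and libraries, so these differences were described and not tested. Levels of 0.8 or more were listed at 36 of the 160 sites (22.5%), against 17.3% of all sites.

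**Figure D2:**
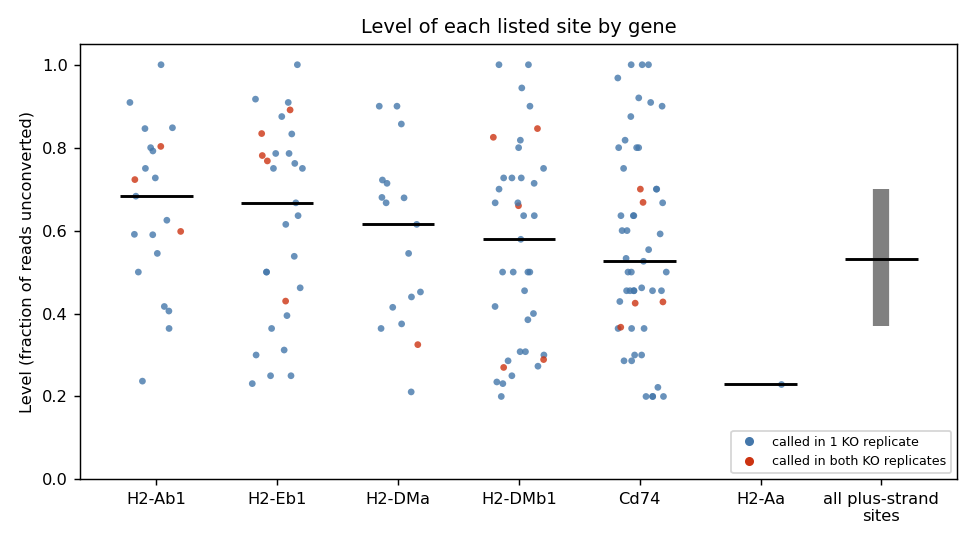
Each point is a listed site with its level, the fraction of reads used that were unconverted (y axis), by gene (x axis), coloured by whether 1 or both KO replicates made the call, and black lines mark medians. The rightmost column gives the median, 0.531, and the quartiles, 0.371 and 0.7 (grey bar), of all listed plus-strand sites. The medians run down through 0.683 in H2-Ab1, 0.667 in H2-Eb1, 0.615 in H2-DMa, 0.579 in H2-DMb1 and 0.526 in Cd74 to the single H2-Aa site at 0.231. H2-Aa lies on the minus strand, where the median over 4761 listed sites was also 0.231.

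The order of the medians, from H2-Ab1 down to Cd74, was not tested and changed with the site rules. At 20 or more covering reads the medians were 0.446 in H2-DMa, 0.5 in H2-DMb1 and 0.53 in Cd74. Among sites called in both KO replicates, H2-Eb1 was highest at 0.781 and H2-DMa, with 1 site, lowest at 0.325. The quartiles of the sites were 0.545 and 0.8 in H2-Ab1, 0.43 and 0.786 in H2-Eb1, 0.415 and 0.714 in H2-DMa, 0.308 and 0.727 in H2-DMb1, and 0.425 and 0.7 in Cd74. These ranges of single sites overlapped between neighbours in the order, which does not say how well each median is known.

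Both KO replicates made the call at 19 of the 160 sites (11.9%), against 14.2% of all listed sites. By coverage, the shares were 4.62% of the plus-strand class II sites and 8.78% of all plus-strand sites at 10 to 14 reads, 15.4% and 15.5% at 15 to 24, 20.7% and 19.3% at 25 to 49, and 15.4% and 17.2% at 50 or more. These shares were not tested, since sites of a gene share reads. H2-Eb1, H2-DMb1 and Cd74 had 5 each, H2-Ab1 3 and H2-DMa 1. In H2-Ab1 the replicate levels were 0.75 and 0.856 at 34264883, 0.668 and 0.778 at 34264887, and 0.5 and 0.696 at 34267961. The invariant chain gene had the closest pairs, with 0.418 and 0.438 at 60812283 and 0.356 and 0.378 at 60812471. H2-Eb1 had the widest, 0.783 and 0.999 at 34314302. In H2-DMb1 the pair at 34157483 was 0.769 and 0.923 and the pair at the next listed site, 34157497, was 0.267 and 0.311. These H2-DMb1 sites did not overlap, so their difference was seen in each replicate. The median SD between replicates was 0.0707 (n = 2 levels at each of 19 sites), the same as over all listed sites. A site had to be called in each library to enter, which limits how far the levels could differ.

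**Figure D3:**
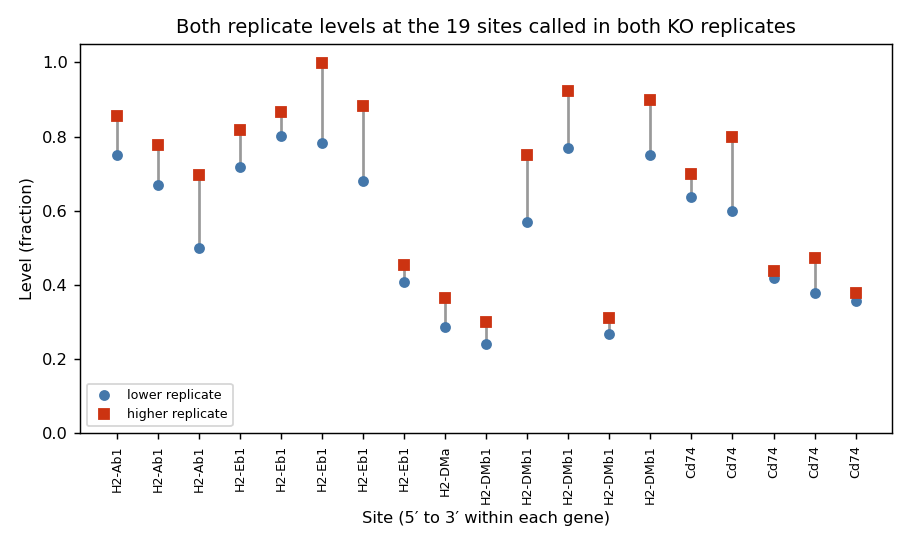
The lower and the higher replicate level (circle and square, joined by a line; y axis, fraction of reads used) at each of the 19 sites called in both KO replicates, in order along each gene (x axis). The files do not say which library gave which level. The widest pair is 0.783 and 0.999 in H2-Eb1 and the closest is 0.418 and 0.438 in Cd74.

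The other genes of the pathway were counted in lists, beside a share with a site of 34.2% over all protein-coding genes, 51.4% for plus-strand and 18.5% for minus-strand genes. The lists were not tested against these shares. Of the remaining class II genes, H2-Oa and H2-Ob, the chains of the H2-DO protein that restrains H2-DM, had 30 and 65 sites with median levels of 0.5 and 0.6, and H2-Eb2 had 0. Of 11 genes for the transcription of class II genes, 7 had a site. Ep300 and Creb1 had 242 and 155 sites, and Rfx5, a subunit of the factor that binds the X box, had 95. Rfxap, Rfxank, Nfyb and Nfyc had 0. All 9 genes on the route from interferon gamma to Ciita had a site, among them the kinase gene Jak2 with 160 and the receptor gene Ifngr1 with 128. Ciita, the end of that route, had none.

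Of 14 genes for endosomal processing, 6 had a site, a share near that over all genes, led by the cathepsin genes Ctsc with 173 and Ctsb with 72 and the lysosomal membrane gene Lamp1 with 41. Cathepsin S, which cuts the invariant chain, had 17 sites in Ctss at a median coverage of 62 reads. Ctsl, Ctsd, Ctsz, Lgmn, Ifi30, Cst3, Lamp2 and Rab7 had 0. Of 4 genes for ubiquitination and turnover all had a site, with 165 in March8, 79 in Cd83 and 33 in March1, whose product marks class II molecules for removal from the surface. The median levels over these lists lay between 0.473 for endosomal processing and 0.545 for the other class II genes, below the 0.599 of the 8 members. These medians were not tested against each other.

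The closest counterpart, class I presentation, had sites in 16 of 22 genes, against 6 of 8 for class II and 34.2% of all protein-coding genes. That share was 51.4% for plus-strand and 18.5% for minus-strand genes, and the lists were not matched for strand. Of the 22 genes, 13 had 5 or more sites, and Calr and Canx had 1 and 3, on the minus strand. The 923 class I sites had a median level of 0.533 at a median coverage of 17 reads, and 17.3% of them were called in both KO replicates. Nlrc5, which encodes the class I transactivator and is thus the counterpart of Ciita, had 234 sites, 54 of them in both replicates. The peptide transporter genes Tap2 and Tap1, which lie between H2-DMb1 and H2-Ab1 on chromosome 17, had 135 and 102 sites. H2-K1, Tapbpl, Psmb9, Psmb10, Psme2 and H2-T23 had 0.

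Markers of cells known to present antigen, and of the leukemia itself, were counted in the same way, again beside 34.2% of all protein-coding genes. Of 8 B cell markers, 0 had a site, Cd79a and Ms4a1 among them. Of 9 dendritic cell markers, 2 had one, Itgax with 88 sites and Batf3 with 27, while Flt3, Zbtb46, Xcr1, Clec9a, Cd209a, Siglech and Ccr7 had 0. Of 8 macrophage markers, 3 had a site, a share near that over all genes: Csf1r with 82, Adgre1 with 70 and Mertk with 20, and the complement genes C1qa, C1qb and C1qc, as well as Cd68, had 0. Of 9 leukemia and progenitor markers, 7 had a site, led by Mpo with 217, Cd34 with 150 and Kit with 106, with 0 in Ctsg and Gfi1. Site counts are not RNA levels, and the part of other cells in the class II sites was not tested.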

How the data were processed

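The labels name 2 Tet2 KO and 2 WT libraries, and the submitters' processing notes give the build mm10. Aligner and site caller were not given in the sources used here. Per the file headers, the deposited level is a fraction averaged over the KO replicates with a call. Covering and unconverted reads are a score, since the authors rounded the mean of both replicates to a whole number where both made the call. The deposited normalized coverage is a score too. The authors' combined p-values were not used. Columns that match no sample of the study numbered 0.

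Reads used were the unconverted reads over the level, whole at 100% of sites called once (tolerance 0.0006). The SD in the file was taken as a population SD and gives both replicate levels; over 72227 sites, 6.65% then had a higher level of 1 (tolerance 0.0011), against 1.66% with the other divisor. Printed SDs are sample SDs. Intervals are Wilson intervals at 95% and cover counting error only. The design planned 70000000 reads per sample; library totals were not used here. Gene spans, strands and promoter sequences came from RefSeq (GRCm38.p6), in which all 8 members were matched by symbol; exons were not used here. Scripts ran in Python 3.11.15 with pandas 2.3.3 and Biopython 1.88. The recovery of reads used and of replicate levels was tested on simulated data. The simulated SD was itself a population SD, so the simulation could not check that choice for the deposited SD.

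No test was made, because the table holds no WT values, does not say which KO library gave a value, and sites of a gene are not replicates. Members, lists and rules were chosen with earlier results of these data known. Named sites were all sites of a gene with 5 or fewer, and otherwise the 3 highest with 20 or more reads used, the deepest, the first and the last. Sites called in both replicates, adjacent pairs, the isolated Cd74 site and the H2-DMb2 sites were singled out after their values were seen, as were the X box motif and the reading of reference bases. Named in each list were the 3 genes with the most sites and those with 0 and, for its role, Ctss; a few of these genes are not reported here. Alternatives were other coverage minimums (20, 30 and 50 reads), replicate, read, level, neighbour and label rules and, added after seeing the data, placing sites by gene span.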

Additional observations from a re-analysis of the deposited data

Results flagged for a closer look

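A signal outside the measurement used above was that 48.1% of the 5942 listed plus-strand positions inside RefSeq promoter windows did not lie on a reference C, and none lay on a T. In the first 50 bases of the gene that labels the site, 49.6% of 1037 plus-strand positions lay on C, and in microRNA hairpins 55.3% of 103 did. The H2-DMb1 site at 34153221 was the class II position among them.

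A signal outside the labelled sites was that 14 listed sites without a gene label stood in the RefSeq span of H2-DMb2, which had 0 sites under its own label. No WT value could be set beside either signal.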

How the results depend on the processing

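The number of class II genes with a site was 6 as deposited and between 4 and 7 under the alternatives. The number of sites, 160 as deposited, was 64 at 20 or more covering reads, 33 at 30, 13 at 50, 19 with calls in both KO replicates, 30 with 20 or more reads used (sites called in 1 replicate only) and 69 without a listed neighbour within 10 nt. Fewer sites enter under each of these by construction. The share called in both replicates, 11.9%, was 20.3% at 20 or more reads, 21.2% at 30 and 7.25% without neighbours. The median level, 0.599, was 0.5 at 50 or more reads and lay between 0.567, at 20 reads, and 0.668, with both replicates, under the other alternatives. The median of H2-DMa was 0.446 at 20 or more reads and 0.325 at its single site called in both replicates. Placing sites by gene span gave 174 sites in 7 genes. No paired analysis was possible because the table holds no WT values and does not say which KO library gave a value, and without that no named replicate could be left out. Depth limits single sites, since the median site called in 1 replicate rested on 12 reads used.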

Other observations

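The deposited normalized coverage equals the coverage times 1 of 2 factors, rounded down, at all listed sites called in 1 KO replicate. One factor lies between 0.9770 and 0.9771 and the other between 0.9943 and 0.9944. They could be told apart at 26320 sites, of which 57.8% had the smaller factor. Of the class II sites, 14 could be told apart, 5 with the smaller factor and 9 with the larger. Cd74 had 3 with the smaller and 2 with the larger, H2-Ab1 1 and 4, H2-Eb1 1 and 1, and H2-DMa 0 and 2. Which KO library either factor belongs to was not determined.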
